A study of Mus musculus with 45 samples.

Results

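The 5 genes described here are *Acsl1*, *Sod2*, *Ubd*, *Heatr9* and *Tma16*, of 29307 genes in the count table of a series of mouse bone marrow-derived macrophages. They were chosen by name because their measured values in the M1 libraries of *Famin* p.284R were higher than those of *Famin* p.254I, with no numeric threshold, and all 5 passed the filter on low counts that left 12905 genes for testing. *Ubd* and *Heatr9* had almost no reads outside M1 and passed the filter only through their M1 libraries. The M1 difference of those 2 genotypes, which selected the genes, is therefore given as a description without a test. The series holds 45 libraries in 9 groups of 5, made of 3 genotypes and 3 polarizations. Macrophages were grown for 6 days from bone marrow of C57BL/6N mice aged 6 to 10 weeks, so every group shares the strain, the age range and the culture. The mice carried knock-in alleles of *Famin*, which encodes a purine nucleoside enzyme of macrophages. *Famin* p.254I is the fully active variant, *Famin* p.254V the common variant tied to risk of inflammatory disease, and *Famin* p.284R the variant of a monogenic inflammatory disorder. Cells were left unstimulated (M0), polarized with IFN-γ and LPS (M1) or polarized with IL-4 (M2). Libraries of a genotype with the same replicate number were taken to be cultures of 1 mouse, which makes 15 mice. The counts hold no base calls, so the genotype of a library could not be checked from them.

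IFN-γ and LPS are the classical pair of signals that turn a macrophage toward killing of microbes. IFN-γ acts on GAS elements and through IRF1, and LPS acts through TLR4 and NF-κB on κB elements. Among the genes described here, *Acsl1* encodes a long-chain acyl-CoA synthetase that activates fatty acids for lipid synthesis or oxidation. *Sod2* encodes the manganese superoxide dismutase of the mitochondrial matrix, which turns superoxide into hydrogen peroxide. *Ubd* encodes FAT10, a ubiquitin-like modifier that UBA6 activates and that sends proteins to the proteasome. *Tma16* encodes a protein bound to maturing 60S ribosomal subunits. *Heatr9* encodes a HEAT repeat protein whose function is little known.

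In GENCODE M21 on mm10, *Acsl1* (ENSMUSG00000018796) lies on the plus strand at chr8:46471037-46536051 and overlaps the minus-strand transcript *Gm45244*. *Sod2* (ENSMUSG00000006818) lies on the plus strand at chr17:13006846-13040063, and *Ubd* (ENSMUSG00000035186), a gene of 2 exons, on the plus strand of the same chromosome at chr17:37193892-37196095. *Heatr9* (ENSMUSG00000018925) lies on the minus strand at chr11:83511736-83522175 and overlaps the plus-strand snRNA *Gm23247*. *Tma16* (ENSMUSG00000025591) lies on the minus strand at chr8:66473118-66486530. How the authors' counting used strand is not given in the sources used here, so reads from *Gm45244* and *Gm23247* could not be told apart from those of *Acsl1* and *Heatr9*.

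Libraries held 17239009 to 43740283 counted reads (median 27553642), and the 15 M1 libraries 17239009 to 36892515. Levels are given in CPM, which scales the count of a gene to the library's reads on tested genes, with TMM factors applied. The 8 macrophage markers summed to between 12050 and 16010 CPM in the M1 libraries, *Csf1r* and *Adgre1* among them. The erythroid markers *Hba-a2*, *Hbb-bt* and *Hbb-bs* had 0 reads in all 15 M1 libraries, and the summed T and NK cell markers did not exceed 0.433 CPM. Of 4 endothelial markers, *Tek* and *Emcn* had 0 reads in every M1 library, while *Kdr* was at 2.84 to 8.27 CPM and *Cdh5* at 0.3 to 1.54 CPM. These are bulk libraries, in which fewer cells of a type and less RNA per cell cannot be told apart.

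Mean levels of all 5 genes were higher in M1 than in M0 in each genotype. In *Famin* p.254V the call of *Tma16* was not stable, and those of *Ubd* and *Heatr9* were close to given, as described below. The comparison asks how each gene responded to IFN-γ and LPS, and it was read first in *Famin* p.254V, whose libraries had no part in choosing the genes. *Acsl1* in *Famin* p.254V was at 51.9, 69.2, 63.5, 57.6 and 53.4 CPM in M0 replicates 1 to 5, and at 189.6, 256, 255, 243 and 272 CPM in the matching M1 libraries. Every M1 value lay above every M0 value, and the log2 fold change was 2.04 (SE 0.20, adjusted p = 9.7e-12 by the edgeR quasi-likelihood test with Benjamini-Hochberg adjustment over all 12905 genes). *Sod2* in the same genotype was at 57.0, 64.1, 56.0, 52.3 and 51.7 CPM in M0 and at 85.0, 69.2, 86.5, 92.2 and 106 CPM in M1. The M1 and M0 ranges of *Sod2* did not overlap either, though they came close in replicate 2, and the log2 fold change was 0.64 (SE 0.19, edgeR adjusted p = 0.0036).

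*Ubd* and *Heatr9* went from almost no reads to a measurable level. *Ubd* had 4 reads over the 5 M0 libraries of *Famin* p.254V and 788 reads over its 5 M1 libraries, where it was at 4.60, 3.70, 5.13, 7.30 and 8.33 CPM in replicates 1 to 5. Its ratio of M1 to M0 reads, scaled to library size, was 229 with a 95% interval of 89.2 to 843 that covers counting error only, and the fitted log2 fold change was 7.61 (SE 0.71, edgeR adjusted p = 1.5e-11). *Heatr9* had 4 reads in M0 and 117 in M1, at 0.962, 0.407, 1.23, 0.867 and 0.764 CPM. Its ratio was 34.0 (95% interval 12.9 to 127), and the fitted log2 fold change was 4.84 (SE 0.62, edgeR adjusted p = 9.3e-09). M0 and M1 values of *Ubd* and *Heatr9* did not overlap in *Famin* p.254V. Both genes passed the low-count filter only through M1, so these calls were close to given and their p-values add little.

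*Tma16* had the smallest fold change. It was at 5.71, 7.19, 7.04, 9.10 and 8.01 CPM in M0 and at 10.2, 8.40, 9.66, 10.6 and 13.6 CPM in M1 of *Famin* p.254V, so the M1 value of replicate 2 lay within the M0 range. The log2 fold change was 0.50 (SE 0.22, edgeR adjusted p = 0.048), and with the mouse as a block the adjusted p was 0.056. The call was also lost in 8 of 15 fits with a mouse left out, with an adjusted p of up to 0.15 without *Famin* p.254V replicate 5. In *Famin* p.254V, 5 of 5 genes were thus called higher, in a comparison where 30.3% of the genes tested were called higher and 32.1% lower. *Ubd* and *Heatr9* passed the low-count filter only through M1, so a call of higher in M1 was close to given for them. The share over all genes is a fair measure only for *Acsl1*, *Sod2* and *Tma16*.

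Over the mean of the 3 genotypes, 5 of 5 genes were called higher, against 37% of all genes called higher and 40.3% called lower. The limit from the low-count filter holds here too for *Ubd* and *Heatr9*. The log2 fold changes were 2.38 for *Acsl1* (SE 0.11, edgeR adjusted p = 1.5e-21), 0.96 for *Sod2* (SE 0.11, adjusted p = 3.7e-10), 8.48 for *Ubd* (SE 0.43, adjusted p = 1.3e-19), 4.97 for *Heatr9* (SE 0.34, adjusted p = 1.1e-16) and 0.90 for *Tma16* (SE 0.13, adjusted p = 6.5e-08). These means include the *Famin* p.284R libraries on which the genes were selected. Without the M1 libraries of *Famin* p.284R replicates 3, 4 and 5, which were the 3 highest M1 libraries for each gene, the values were 2.04 for *Acsl1*, 0.61 for *Sod2*, 7.76 for *Ubd*, 4.48 for *Heatr9* and 0.55 for *Tma16*, and all 5 were still called higher. The plot of all 45 libraries shows the response in each genotype.

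**Figure D1:**
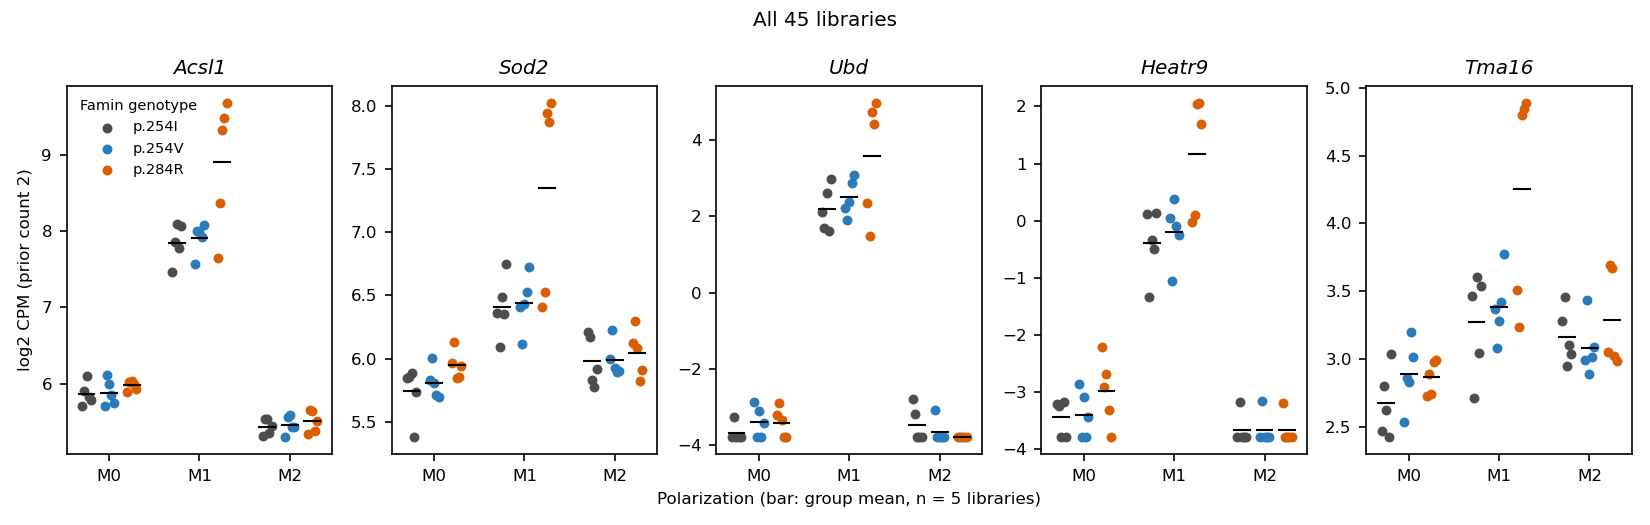
Level of each gene as log2 CPM with a prior count of 2 (y axis, one scale per gene) in M0, M1 and M2 (x axis), with 1 point per library, colors for the *Famin* genotypes and a bar at each group mean (n = 5). All 5 genes lie highest in M1, *Ubd* and *Heatr9* lie at the bottom of the scale in M0 and M2, and the *Famin* p.284R points in M1 are split into high and low libraries.

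Per kilobase of exon, the genes could be set beside each other roughly. The length was that of all annotated exons of a gene merged, which can exceed the transcripts expressed. It was 10.5 kb for *Acsl1*, 10.0 kb for *Sod2*, 7.64 kb for *Tma16*, 1.88 kb for *Heatr9* and 0.931 kb for *Ubd*. In M0, the median RPKM over 15 libraries was 5.74 for *Sod2* and 5.69 for *Acsl1*, with ranges that overlapped (4.15 to 6.99 and 4.95 to 6.61), then 0.921 for *Tma16*, 0.0176 for *Heatr9* and 0 for *Ubd*. In M1, *Acsl1* led at a median of 24.4 RPKM, followed by *Sod2* at 8.98 and *Ubd* at 5.51. *Tma16* at 1.43 RPKM and *Heatr9* at 0.513 RPKM came last. The place of *Ubd* above *Tma16* rests on the exon length. Mean CPM in M1 was higher for *Tma16* in every genotype (10.5 against 5.81 CPM in *Famin* p.254V). *Ubd* and *Heatr9* were both at the floor in M0, with ranges that overlapped (0 to 0.0706 and 0 to 0.0771 RPKM), so their order there is not read. The M1 ranges of *Sod2* (6.82 to 26 RPKM) and *Ubd* (2.90 to 33.7 RPKM) overlapped.

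The promoter windows of *Sod2*, *Ubd* and *Heatr9* are shown because they hold letters that match the motifs searched, those of stimulus-activated factors (κB, GAS and AP-1) and of PU.1, a factor that sets macrophage identity. Each runs from 250 bases before to 50 bases after the RefSeq start on GRCm38.p6, 5′ to 3′ on the strand of the gene, with matches in capitals. The *Sod2* window is chr17:13007589-13007888 on the plus strand, that of *Ubd* is chr17:37193642-37193941 on the plus strand and that of *Heatr9* is chr11:83522050-83522349 on the minus strand.
Sod2: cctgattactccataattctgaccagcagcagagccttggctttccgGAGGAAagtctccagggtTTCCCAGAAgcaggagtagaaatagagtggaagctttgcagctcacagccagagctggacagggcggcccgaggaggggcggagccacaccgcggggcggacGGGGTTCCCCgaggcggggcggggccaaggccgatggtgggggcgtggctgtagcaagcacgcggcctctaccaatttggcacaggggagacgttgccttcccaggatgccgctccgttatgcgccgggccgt
Ubd: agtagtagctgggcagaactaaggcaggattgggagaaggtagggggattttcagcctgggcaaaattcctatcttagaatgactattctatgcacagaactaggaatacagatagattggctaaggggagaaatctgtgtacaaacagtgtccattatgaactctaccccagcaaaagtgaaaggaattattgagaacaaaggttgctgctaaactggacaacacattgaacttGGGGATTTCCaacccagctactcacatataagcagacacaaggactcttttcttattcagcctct
Heatr9: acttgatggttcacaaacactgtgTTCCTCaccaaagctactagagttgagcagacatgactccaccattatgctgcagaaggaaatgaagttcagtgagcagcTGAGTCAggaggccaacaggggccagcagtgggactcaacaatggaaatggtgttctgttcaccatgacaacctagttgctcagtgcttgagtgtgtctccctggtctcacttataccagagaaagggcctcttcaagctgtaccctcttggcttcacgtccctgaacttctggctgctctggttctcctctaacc
Counting backward from the start, *Sod2* had a κB match whose first base lay at -83, a GAS match (TTCNNNGAA) at -185 and a PU.1 match (GAGGAA) at -203. *Ubd* had a κB match at -15, and *Heatr9* an AP-1 match (TGANTCA) at -146 and a PU.1 match on the other strand at -226. No match of these motifs, of the ISRE or of C/EBP (TTGCNNAA) was found in the window of *Tma16* or in either of the 2 windows of *Acsl1*. Both strands were searched in 32851 promoter windows of this length, of which 8.46% held a κB match, 8.30% a GAS match, 7.81% an AP-1 match, 28.3% a PU.1 match, 3.44% an ISRE match and 10.8% a C/EBP match. The matches within a window did not overlap, and a match describes letters and not a bound factor.

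Within M1, the higher mean of *Famin* p.284R came from 3 of its 5 libraries. *Acsl1* was at 176, 232, 273, 219.8 and 268 CPM in *Famin* p.254I replicates 1 to 5, and at 200.4, 332, 642, 716 and 826 CPM in *Famin* p.284R. *Famin* p.284R replicates 3, 4 and 5 were the 3 highest of the 15 M1 libraries. Replicate 1 lay inside the *Famin* p.254I range, which replicate 2 exceeded, and the lowest of the 3 stood above the next library by a ratio of 1.93.

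The same libraries stood at the top for the other 4 genes. *Sod2* was at 82.0, 68.3, 89.8, 81.6 and 107 CPM in *Famin* p.254I and at 85.0, 92.0, 246, 234 and 260.3 CPM in *Famin* p.284R. *Ubd* was at 4.23, 3.14, 6.05, 3.01 and 7.75 CPM in *Famin* p.254I and at 5.03, 2.70, 26.7, 21.4 and 31.4 CPM in *Famin* p.284R. For both genes, *Famin* p.284R replicates 1 and 2 did not exceed the highest *Famin* p.254I library, and replicate 2 had the lowest *Ubd* level of all 15 M1 libraries. *Heatr9* was at 1.01, 0.323, 0.715, 0.639 and 1.03 CPM in *Famin* p.254I and at 0.910, 0.998, 4.05, 4.11 and 3.16 CPM in *Famin* p.284R. *Tma16* was at 10.9, 6.47, 12.1, 8.16 and 11.6 CPM in *Famin* p.254I and at 11.3, 9.35, 27.8, 28.7 and 29.6 CPM in *Famin* p.284R. Replicates 3, 4 and 5 were again the 3 highest libraries, and the lowest of them stood above the next library by a ratio of 2.19 for *Sod2*, 2.57 for *Ubd*, 2.57 for *Heatr9* and 2.05 for *Tma16*.

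**Figure D2:**
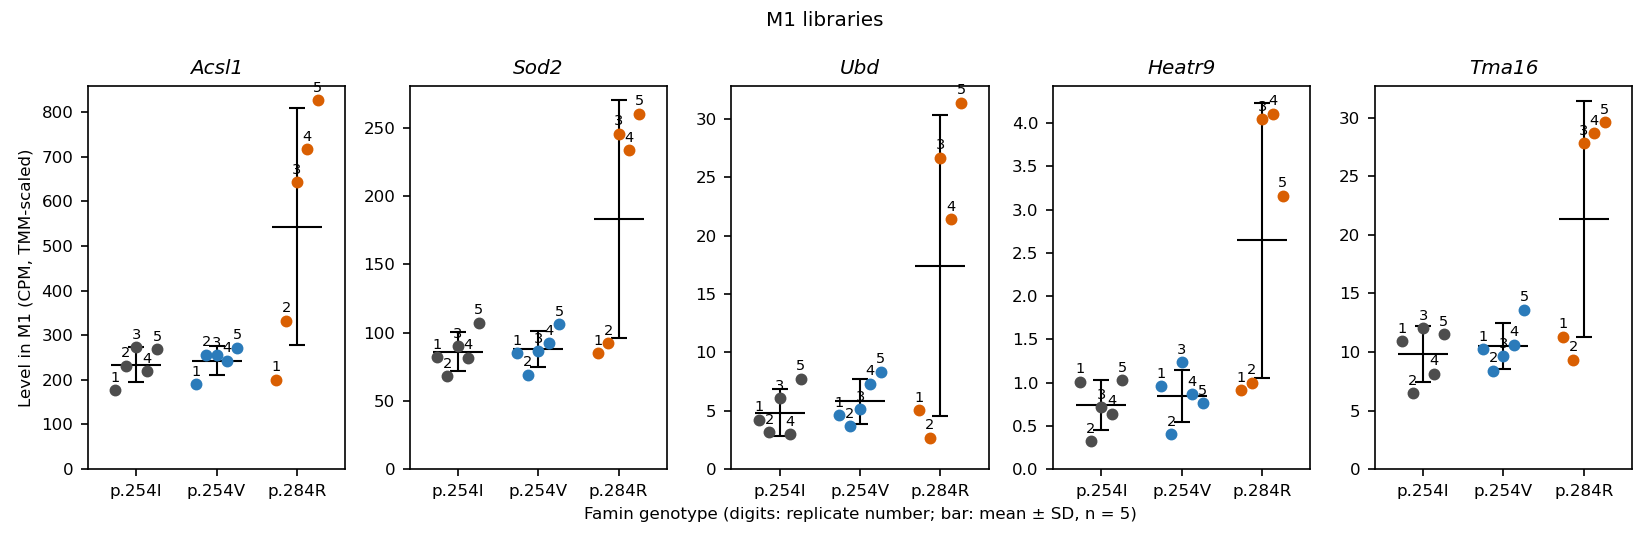
Level of each gene in CPM (y axis from 0, one scale per gene) in the 15 M1 libraries by *Famin* genotype (x axis), with 1 point per library marked with its replicate number and a bar for the mean ± SD (n = 5). *Famin* p.284R replicates 3, 4 and 5 lie above all other libraries for every gene, and the SD of *Famin* p.284R is wide for that reason.

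The group means of *Famin* p.284R in M1 thus stood with a large spread. *Acsl1* averaged 543 ± 265 CPM in *Famin* p.284R and 234 ± 39.5 CPM in *Famin* p.254I (SD, n = 5), and *Sod2* averaged 183 ± 87.1 and 85.8 ± 14.3 CPM. *Ubd* averaged 17.4 ± 12.9 and 4.84 ± 2.03 CPM, *Heatr9* 2.64 ± 1.59 and 0.743 ± 0.292 CPM, and *Tma16* 21.4 ± 10.1 and 9.83 ± 2.41 CPM. The ranges of the 2 genotypes overlapped for all 5 genes. The mean log2 levels differed by 1.05 for *Acsl1*, 0.95 for *Sod2*, 1.39 for *Ubd*, 1.56 for *Heatr9* and 0.99 for *Tma16*.

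*Famin* p.254V did not show the high libraries. In M1 it averaged 243 ± 31.6 CPM for *Acsl1*, 87.8 ± 13.3 CPM for *Sod2*, 5.81 ± 1.93 CPM for *Ubd*, 0.846 ± 0.301 CPM for *Heatr9* and 10.5 ± 1.93 CPM for *Tma16* (SD, n = 5). Its mean log2 level differed from that of *Famin* p.254I by 0.06 for *Acsl1*, 0.03 for *Sod2*, 0.30 for *Ubd*, 0.19 for *Heatr9* and 0.11 for *Tma16*, with overlapping ranges for all 5 genes. No test is given among the M1 groups, since they share the *Famin* p.254I libraries used to choose the genes.

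*Famin* p.284R replicates 3, 4 and 5 were not set apart in the M0 and M2 cultures taken to be of the same mice. In M0, *Acsl1* was at 65.6, 63.7 and 61.0 CPM in them, the places 3, 5 and 7 of 15, and in M2 it was at 49.9, 41.5 and 45.3 CPM, the places 2, 11 and 7. *Sod2* held the places 8, 7 and 4 in M0 and 6, 14 and 10 in M2. *Tma16* held the places 10, 5 and 4 in M0 and 2, 10 and 13 in M2. *Ubd* and *Heatr9* had too few reads in M0 and M2 to be ranked.

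Many other genes had the same 3 libraries at the top of M1. Of the 12905 genes tested, 626 (4.85%) had *Famin* p.284R replicates 3, 4 and 5 as their 3 highest M1 libraries and 412 (3.19%) had them as their 3 lowest. In the list of IFN-γ and LPS response genes, 14 of 18 tested had them highest, among them *Nos2*, *Acod1*, *Cxcl9*, *Cxcl10*, *Tnf*, *Ptgs2*, *Cd40* and *Nfkbia*. This list summed to between 22390 and 22850 CPM in those libraries and between 13710 and 17300 CPM in the other 12. The 12 IL-4 response genes summed to between 102 and 143 CPM there and between 172 and 441 CPM in the other 12, with *Mrc1* alone at 65.5 to 238 CPM over the M1 libraries. Of these 12 genes, 1 had the 3 libraries lowest, *Mrc1*, and 0 had them highest. Levels of M1 response genes thus moved with the 5 genes, and their part in the result was not tested.

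Cell type markers and depth were also set beside these libraries. The macrophage markers summed to between 12840 and 16010 CPM in *Famin* p.284R replicates 3, 4 and 5 and between 12050 and 15020 CPM in the other 12, and the neutrophil and progenitor markers to between 46.8 and 79.1 CPM and between 47.9 and 154 CPM. Over the 15 M1 libraries less genotype means, the neutrophil genes *Ngp* and *S100a9* ran against *Tma16* (r = -0.87 and -0.82) and against *Acsl1* less closely (r = -0.60 and -0.46). The B cell list summed to between 3.95 and 5.96 CPM in the 3 libraries and between 5.66 and 9.54 CPM in the other 12, nearly all of it *Cd79b*, which had an r of -0.77 with *Acsl1*. The endothelial list summed to between 7.96 and 8.88 CPM there and between 3.27 and 5.03 CPM elsewhere, through *Kdr*, with *Tek* and *Emcn* at 0 reads, and *Kdr* had the 3 libraries as its highest. Total counts of the 3 libraries were 25017652, 36892515 and 17239009, the last 2 being the highest and the lowest of the 15 M1 libraries. The part of these values in the result was not tested, and the sequencing lane of each library is not given in the sources used here.

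The response to IL-4 differed from gene to gene. In the mean of the 3 genotypes, M2 against M0, 1 of the 5 genes was called higher and 2 lower, where 36.8% of all genes were called higher and 39.6% lower. The contrast sets M2 against M0 libraries, but the spread behind its SE and p was estimated over all 45 libraries, M1 included. *Acsl1* ranged from 51.9 CPM through a median of 59.6 CPM to 69.2 CPM in M0 and from 39.1 through 43.2 to 50.05 CPM in M2. The 15 M2 values all lay below the 15 M0 values, and the log2 fold change was -0.44 (SE 0.11, edgeR adjusted p = 0.00049). The order of *Acsl1* levels was therefore M1 above M0 above M2 in each genotype, without overlap.

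*Tma16* rose in M2, with a log2 fold change of 0.38 (SE 0.13, edgeR adjusted p = 0.0084), and averaged 8.96 ± 1.30, 8.48 ± 1.32 and 9.92 ± 2.59 CPM in *Famin* p.254I, p.254V and p.284R, against 6.38 ± 1.17, 7.41 ± 1.25 and 7.22 ± 0.634 CPM in M0 (SD, n = 5). The M0 and M2 ranges overlapped in all 3 genotypes. *Sod2* averaged 63.6 ± 8.82, 63.8 ± 6.48 and 66.5 ± 8.64 CPM in M2 and 53.8 ± 7.25, 56.2 ± 4.98 and 61.7 ± 5.09 CPM in M0, and its log2 fold change of 0.18 (SE 0.11, edgeR adjusted p = 0.14) was not called. A fit of the M0 and M2 libraries alone called it, at an adjusted p of 0.007.

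*Ubd* and *Heatr9* were at the floor in M2. *Ubd* had 0 to 2 reads in each M0 and M2 library, and no fold is given. *Heatr9* had 3, 4 and 10 reads over the 5 M0 libraries of *Famin* p.254I, p.254V and p.284R, and 1 read over the 5 M2 libraries of each genotype. The test called it lower (edgeR adjusted p = 0.047), a call that 14 of the alternatives lost (adjusted p 0.052 to 0.13), 11 of them with a mouse left out, and no fold is given.

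Outside M1, no genotype difference of these genes was called. *Famin* p.284R against *Famin* p.254I gave 0 of 5 genes called in M0, where edgeR called 0% of all genes (140 at an unadjusted p under 0.05, and 1 gene by DESeq2), and 0 of 5 in M2, where edgeR called 0.00775% (148 unadjusted, and 2 genes by DESeq2). The log2 differences in M0 were 0.11 (SE 0.19) for *Acsl1*, 0.20 (SE 0.19) for *Sod2* and 0.18 (SE 0.23) for *Tma16*. In M2 they were 0.07 (SE 0.19) for *Acsl1*, 0.06 (SE 0.19) for *Sod2* and 0.15 (SE 0.22) for *Tma16*. All adjusted p were 1, also in fits of only the libraries compared, and no member reached an unadjusted p under 0.05. *Ubd* and *Heatr9* could not be compared there at this depth.

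*Famin* p.254V against *Famin* p.254I also gave 0 of 5 in M0 and 0 of 5 in M2, with 0% of all genes called in each by edgeR (231 and 329 at an unadjusted p under 0.05, and 1 and 2 genes by DESeq2). The log2 differences in M0 were 0.02 for *Acsl1* (SE 0.19), 0.06 for *Sod2* (SE 0.19) and 0.22 for *Tma16* (SE 0.23). In M2 they were 0.03, 0.00 and -0.08 with SEs of 0.19, 0.19 and 0.22. The M2 response itself, tested as *Famin* p.284R minus *Famin* p.254I, was called for 0 of 5 genes and 0% of all genes by edgeR (70 unadjusted), with values of -0.04 (SE 0.27) for *Acsl1*, -0.13 (SE 0.27) for *Sod2* and -0.03 (SE 0.32) for *Tma16*. In simulated counts for the M0 comparison of *Famin* p.284R with *Famin* p.254I, 83 of 100 genes changed 2-fold were called, as were 8 unchanged genes. The changed genes had M0 means above 1 CPM. All libraries were drawn independently around M0 means, without the deviations that same-numbered libraries share, so the share called may differ in the data.

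**Figure D3:**
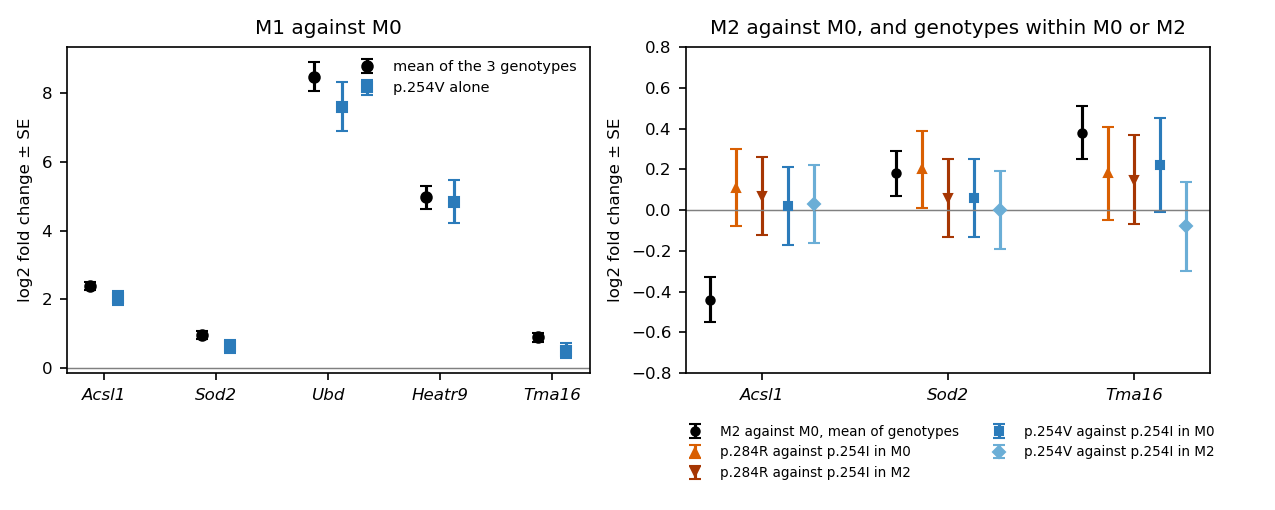
Log2 fold change ± SE from edgeR (y axis) for each gene (x axis), with M1 against M0 on the left, and M2 against M0 and genotypes within M0 or M2 on the right, for the 3 genes with enough reads. SEs come from the fit of all 45 libraries. All 5 genes lie above 0 on the left, and on the right the genotype comparisons lie within 0.22 of 0 while *Acsl1* lies at -0.44 and *Tma16* at 0.38 in M2 against M0.

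How the 5 genes varied together from mouse to mouse was read over the 10 M1 libraries of *Famin* p.254I and *Famin* p.254V after each genotype's mean was subtracted, because 3 of the *Famin* p.284R libraries form a cluster of their own. *Sod2*, *Ubd* and *Tma16* were the 3 genes whose pairs passed the test there, though not with the replicate number as a block. *Sod2* and *Ubd* had a Pearson r of 0.91 (permutation p = 0.00037, adjusted over the 10 pairs 0.0037) and a Spearman rho of 0.94 (permutation p = 0.00018, adjusted 0.0018). For *Sod2* and *Tma16*, r was 0.86 (permutation p = 0.0037, adjusted 0.017) and rho 0.83 (permutation p = 0.011, adjusted 0.035). For *Ubd* and *Tma16*, r was 0.85 (permutation p = 0.0051, adjusted 0.017) and rho 0.90 (permutation p = 0.0024, adjusted 0.012). Without the 2 libraries farthest from the median of the first gene, r was 0.86, 0.83 and 0.80 in these pairs.

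The other 7 of 10 pairs did not pass, *Acsl1* and *Heatr9* being the pair with the lowest value (r = -0.18, rho = -0.01, permutation adjusted p = 0.67 and 1). *Acsl1* and *Sod2* had an r of 0.35 and a rho of 0.53 (permutation adjusted p = 0.44 and 0.23). *Sod2* and *Heatr9* had an r of 0.69 and a rho of 0.56, both with a permutation adjusted p above the threshold (0.12 and 0.23). Same-numbered libraries of different genotypes deviated together, and replicate 2 was the lowest and replicate 5 the highest for *Sod2* in *Famin* p.254I and in *Famin* p.254V alike. The permutations above treat libraries that share a number as independent. With the replicate number as a block, which leaves 5 differences between the genotypes and 120 orderings, 0 of 10 pairs passed. *Sod2* and *Ubd* then had an r of 0.96 (exact two-sided permutation p = 0.025, adjusted 0.25), *Sod2* and *Tma16* an r of 0.57 (exact permutation adjusted p = 0.51) and *Ubd* and *Tma16* an r of 0.69 (exact permutation adjusted p = 0.42). The smallest p that 120 orderings can give is 0.0083 before adjustment.

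**Figure D4:**
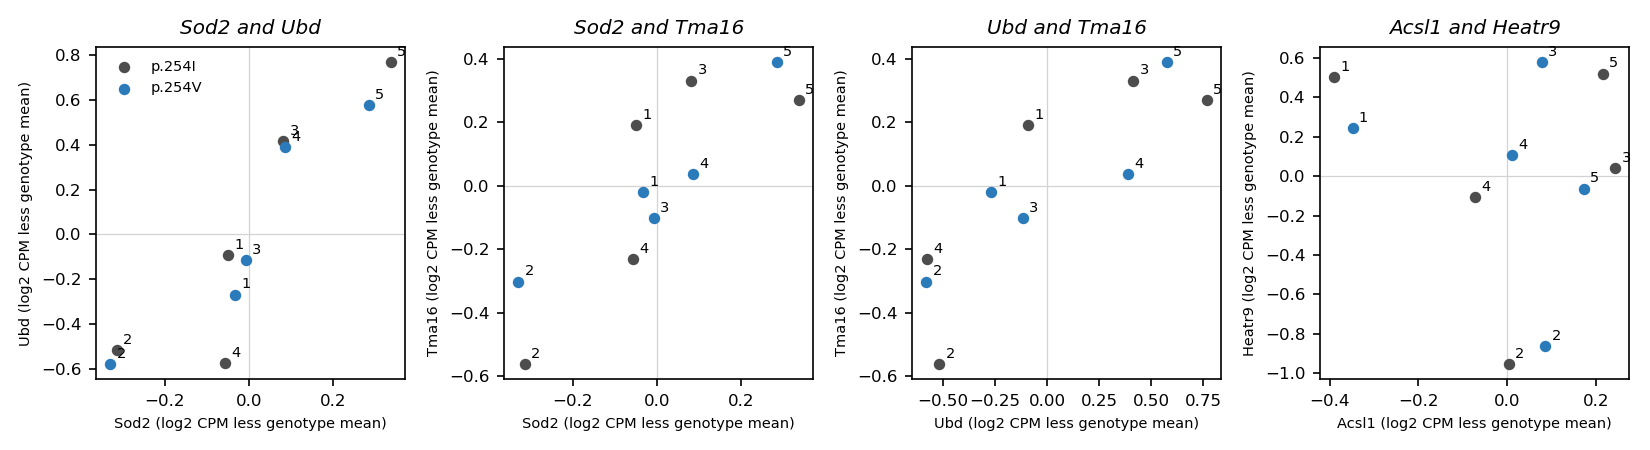
Deviation of log2 CPM from the genotype mean for 4 pairs of genes (one gene on each axis) in the 10 M1 libraries of *Famin* p.254I and *Famin* p.254V, with 1 point per library marked with its replicate number. The points of *Sod2* and *Ubd* rise along a line (r = 0.91), and those of *Acsl1* and *Heatr9* do not (r = -0.18).

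The genes whose M1 pattern was most like each of the 5 were found by the Pearson r of log2 CPM over all 15 M1 libraries less the genotype means, a measure of likeness that includes *Famin* p.284R replicates 3, 4 and 5. For *Acsl1* they were *Cd40*, a receptor for T cell help (r = 0.981), *Gpd2*, the mitochondrial glycerol-3-phosphate dehydrogenase (r = 0.954), and *Lmo4* (r = 0.953). *Cd40* ranged from 54.7 to 180 CPM over the M1 libraries. For *Sod2* they were *Plpp1*, a phospholipid phosphatase (r = 0.975), *Ankib1* (r = 0.964) and the semaphorin receptor *Nrp2* (r = 0.960). The nearest to *Ubd* were *Tma16* (r = 0.959), *Cacnb1* (r = 0.958) and *Sod2* (r = 0.956). *Heatr9* was most like *D130043K22Rik* (r = 0.964), *Snx10* (r = 0.963) and *Sppl2a* (r = 0.958), and *Tma16* most like *Exoc3l4* (r = 0.967), *Ubd* (r = 0.959) and *Sod2* (r = 0.953).

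Few genes reached such values. An r over 0.9 was found for 32 of the other 12904 genes with *Acsl1*, 45 with *Sod2*, 21 with *Ubd*, 37 with *Heatr9* and 30 with *Tma16*, which is 0.163% to 0.349% of them. The genes described here were chosen on *Famin* p.284R libraries that enter this r. A high r among them was therefore built in and lends no support to covariation. The lowest rank of another chosen gene was 525 with *Acsl1*, 83 with *Sod2*, 189 with *Ubd*, 1227 with *Heatr9* and 351 with *Tma16*. Every gene named as most alike had *Famin* p.284R replicates 3, 4 and 5 as its 3 highest M1 libraries. They did not all respond to M1: *Cd40* rose against M0 (log2 fold change 2.69, edgeR adjusted p = 4e-22), while *Nrp2* (-0.17, adjusted p = 0.086) and *Cacnb1* (0.15, adjusted p = 0.12) were not called.

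**Figure D5:**
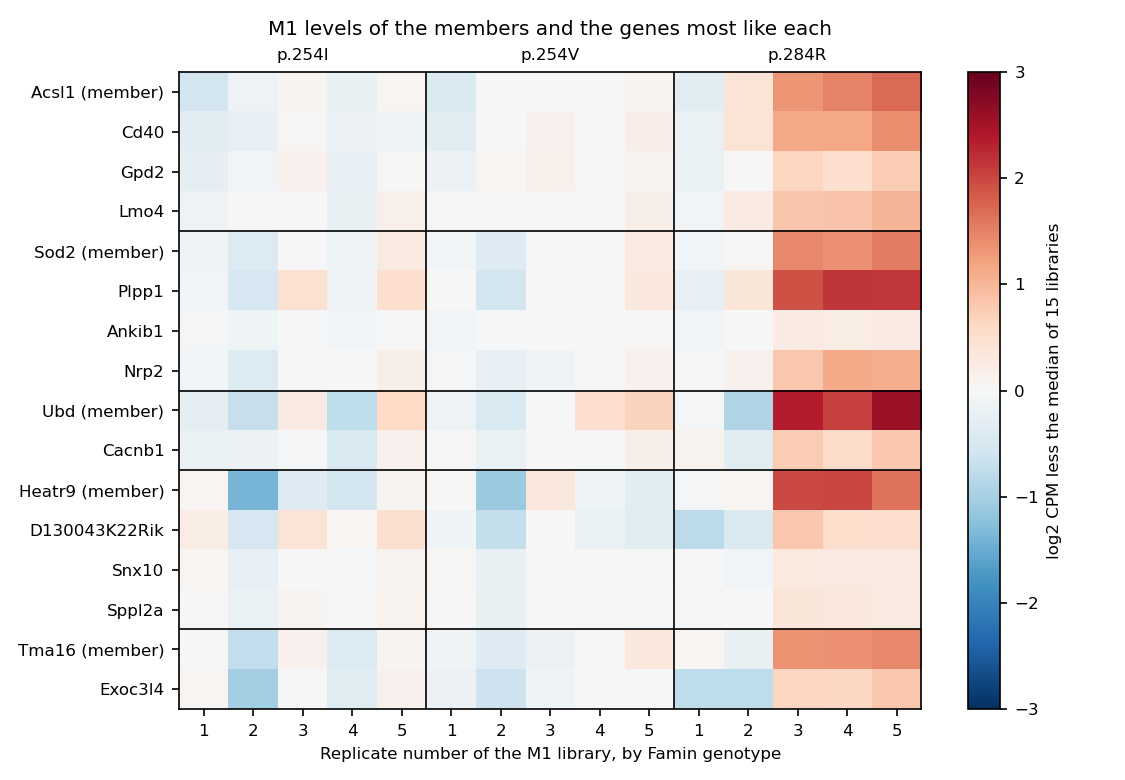
Log2 CPM less the median of the 15 M1 libraries (color scale from -3 to 3) for the 5 genes and the genes most like each (rows) in every M1 library (columns, by *Famin* genotype and replicate number). *Famin* p.284R replicates 3, 4 and 5 are the 3 highest libraries in every row, with the deepest color for *Ubd*.

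Of 17 acyl-CoA synthetases and fatty acid transport proteins, 12 were tested, of which 4 were called higher and 7 lower in M1 against M0 (mean of the 3 genotypes), where 37% of all genes were called higher and 40.3% lower. Their median log2 fold change was -0.38, against -0.03 over all genes. *Acsl5* (0.54, edgeR adjusted p = 1.7e-20) and *Acsl4* (0.48, adjusted p = 9.2e-12), long-chain synthetases like *Acsl1*, and the acetyl-CoA synthetase *Acss2* (1.14, adjusted p = 2.8e-10) rose. *Acsl3* (-1.20, adjusted p = 2.8e-21), which serves lipid droplets, and the fatty acid transporter *Slc27a1* (-1.33, adjusted p = 8e-19) fell. None of the 12 had *Famin* p.284R replicates 3, 4 and 5 as its 3 highest M1 libraries, against 4.85% of all genes tested. The list summed to between 562 and 599 CPM in those libraries and between 562 and 616 CPM in the other 12.

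Among 18 tested genes of superoxide and peroxide removal, 6 were called higher and 9 lower in M1, against 37% and 40.3% of all genes (median log2 fold change -0.34). The cytosolic dismutase *Sod1* fell (-0.51, edgeR adjusted p = 5.8e-12), as did catalase, *Cat* (-1.42, adjusted p = 1.9e-22), so the 2 intracellular dismutases moved in opposite directions. Thioredoxin, *Txn1* (2.35, adjusted p = 5.6e-32), and the peroxiredoxin *Prdx5* (1.88, adjusted p = 1e-19) rose. *Prdx1*, *Prdx5*, *Srxn1* and *Txnrd1*, 4 of the 18, had *Famin* p.284R replicates 3, 4 and 5 as their 3 highest M1 libraries, against 4.85% of all genes tested. The list summed to between 5976 and 6471 CPM in those libraries and between 3700 and 5041 CPM in the other 12. *Prdx1* (742 to 2770 CPM over the M1 libraries) and *Prdx5* (499 to 1370 CPM) had the widest ranges in it.

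Of 16 genes of FAT10 conjugation and delivery and of other ubiquitin-like modifiers, 12 were called higher and 3 lower in M1, against 37% and 40.3% of all genes (median log2 fold change 0.35). The FAT10-activating enzyme *Uba6* fell (-0.44, edgeR adjusted p = 4.4e-07), while the conjugating enzyme *Ube2z* (0.45, adjusted p = 4e-19) and the FAT10-binding *Nub1* (0.37, adjusted p = 1.1e-12) rose. *Isg15*, another interferon-induced modifier, rose by more (3.34, adjusted p = 3.1e-14). *Isg15*, *Sqstm1* and *Ube2z*, 3 of the 16, had the 3 high *Famin* p.284R libraries at the top, against 4.85% of all genes tested.

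*Tma16* acts among the pre-60S ribosome assembly genes. Of 27 tested, 15 were called higher and 3 lower in M1, against 37% and 40.3% of all genes (median log2 fold change 0.14). In M2, 26 were called higher and 0 lower, against 36.8% and 39.6% of all genes (median 0.62). *Tma16* rose in M1 by 0.90, above the list's median, in a mean that includes the *Famin* p.284R libraries on which it was chosen. In *Famin* p.254V alone its value was 0.50 (SE 0.22), with a call that was not stable, against a list median of 0.12. In M2 *Tma16* rose by 0.38, below the list's median. Only *Ddx18* of the 27 had *Famin* p.284R replicates 3, 4 and 5 as its 3 highest M1 libraries, against 4.85% of all genes tested. The list summed to between 899 and 989 CPM in those libraries and between 851 and 950 CPM in the other 12. Of 5 other HEAT repeat genes named like *Heatr9*, *Heatr1* and *Heatr6* were called higher in M1 and none lower, against the same 37% and 40.3%, with a median of 0.07, and none had those libraries at the top.

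Some genes next to *Heatr9*, *Tma16*, *Ubd* and *Sod2* on the chromosome were measured as well. *Ccl5*, a T cell attracting chemokine whose gene lies 3.6 kb from *Heatr9*, rose in M1 with it (log2 fold change 5.07, edgeR adjusted p = 2.1e-09) and had an r of 0.79 with it over the 15 M1 libraries. The chemokine genes *Ccl9* (-2.77, adjusted p = 1.6e-25) and *Ccl6* (-1.09, adjusted p = 2.3e-06), 50.7 and 65.7 kb from *Heatr9*, fell. *March1*, which lies 1.48 kb from *Tma16* on the other strand, rose (0.81, adjusted p = 4.9e-09) with an r of 0.12 to *Tma16*. *H2-M3*, a class Ib MHC gene and the 1 tested gene within 100 kb of *Ubd*, rose (1.46, adjusted p = 1.1e-23), and *Wtap*, 12.7 kb from *Sod2*, fell (-0.15, adjusted p = 0.00028).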

How the data were processed

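Poly(A) RNA of 45 macrophage cultures was sequenced. The sample notes name FastQC, Trim Galore, HISAT2, limma and mm10, and the counting tool is not given in the sources used here. The authors deposited raw counts per Ensembl identifier for 29307 genes, which were the input of all tests. The authors also deposited CPM for 11900 genes, from which whole reads equal to the counts were recovered for 100% of values (tolerance 0.01 read). Total counts ranged from 17239009 to 43740283, and intervals cover counting error only. The table of counts paired 29081 identifiers with GENCODE M21 symbols.

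Groups came from the sample titles. Counts were filtered with filterByExpr over the 9 groups (12905 genes), scaled by TMM and fitted by edgeR 4.0.16 glmQLFit with robust dispersions in R 4.3.3. A gene was called at an adjusted p (Benjamini-Hochberg) under 0.05. DESeq2 1.42.0 and limma 3.58.1 were alternatives, as were other size factors, other filters, replicate blocks, only the libraries compared and each mouse left out. After values had been seen, recovered reads, the fit without *Famin* p.284R M1 replicates 3, 4 and 5, and the correlations over 10 libraries were added. Correlations used log2 CPM (prior count 2), with 100000 permutations of libraries within genotype in Python 3.11.15 (within replicate number for the blocked fit over 15, and all orderings of the 5 differences between genotypes for the one over 10). The fit was tested on simulated data.

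Over 8625 genes, same-numbered libraries of different genotypes deviated together with a correlation over 0.1 in most pairs. These were 15 of 15 in M0, 15 of 15 in M1 and 13 of 15 in M2. The median correlations were 0.69, 0.50 and 0.42, with a lowest value of -0.43 in M2. The numbers thus pair libraries in M2 as well, though less closely. The fits and p-values printed have no replicate term unless a block is named. The study's methods name no such term for differential expression. For gene set enrichment, the paper used log CPM corrected for batch with sva, without saying there what the batches were. M0 and M1 cultures taken to be of 1 mouse deviated together, with a correlation over 0.1, in 13 of 15 pairs (median 0.27). For M0 and M2 cultures it was 15 of 15 pairs (median 0.45). For M1 and M2 cultures it was 10 of 15 pairs (median 0.13, lowest -0.19), so the link was weakest there. Whether the numbers mark a day or a batch is not stated. Without a block, the edgeR p-values measure the spread between libraries of the same group, pooled over the groups. In the fit of all 45 libraries this includes the M1 groups, and cultures of the same mouse are treated as independent.

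The genes named are the 5 chosen genes, members of the pathway and marker lists, the 3 genes most like each of the 5 and tested neighbors within 100 kb. The 5 genes and the lists were chosen with earlier results of these data known, and the genes named from a list were picked after its values were seen.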

Additional observations from a re-analysis of the deposited data

Results flagged for a closer look

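*Sod2* in the M2 libraries of *Famin* p.254V had 1 library far from the others. Replicate 2 was the highest at 74.9 CPM, while the nearest library was at 63.9 CPM and the lowest at 59.5 CPM, so that its gap took a share of 0.715 of the range where Dixon's limit for 5 libraries is 0.71. It was the 1 such case in 33 groups of 5 libraries tested, and chance gives about 1 in 20.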

How the results depend on the processing

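In the mean of the 3 genotypes, all 5 genes were called higher in M1 against M0 under every alternative in which they were tested. A minimum of 10 counts in every library left *Ubd* and *Heatr9* untested, so 3 members were called higher in that mean and 2 in *Famin* p.254V. In *Famin* p.254V the call of *Tma16* was lost in 14 alternatives, with an adjusted p of 0.053 to 0.092 in 6 of them (limma-voom gave 0.092, the mouse as a replicate block 0.056) and of 0.052 to 0.15 in 8 with a mouse left out, the largest without *Famin* p.254V replicate 5 (0.15) and replicate 1 (0.14). In M2 against M0, the count called lower was 1 in place of 2 with limma-voom, without a filter, with the minimum of 10 counts, with only the libraries compared and with recovered reads, and ranged from 1 to 2 with a mouse left out, as *Heatr9* crossed the threshold (adjusted p 0.052 to 0.13) or was not tested. The count called higher was 2 in place of 1 with only the libraries compared, where *Sod2* passed. Blocks by replicate number changed no other call of a member.

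Over all genes, *Famin* p.284R against p.254I called 1 in place of 0 in M0 with DESeq2, the replicate block and only the libraries compared, and 2 in place of 1 in M2 with DESeq2 and a fit of the compared libraries. A left-out mouse gave 0 to 1 in M0 and 1 to 2 in M2. *Famin* p.254V against p.254I called 1 in M0 and 2 in M2 with DESeq2 in place of 0, and 0 to 1 in each with a mouse left out. The cause was not tested.

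Values near 0 changed sign, none of them called. For *Famin* p.254V against p.254I in M0, *Acsl1* ranged from -0.04 to 0.08, *Sod2* from -0.02 to 0.10 and *Heatr9* from -0.39 to 0.44 with a mouse left out, and *Heatr9* -0.02 with limma-voom. In M2, *Acsl1* ranged from -0.01 to 0.07, *Sod2* from -0.06 to 0.07 and *Heatr9* from -1.42 to 1.43 with a mouse left out, *Sod2* -0.01 without a filter and *Heatr9* -0.01 with the replicate block. For *Famin* p.284R against p.254I in M2, *Heatr9* ranged from -1.42 to 1.39 and *Sod2* from 0.00 to 0.12 with a mouse left out. The difference of M2 responses ranged from -0.07 to 0.00 for *Acsl1* and from -0.17 to 0.07 for *Tma16* with a mouse left out.

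Over all 15 M1 libraries less genotype means, r was 0.65 to 0.96 and 9 of 10 pairs passed. Subtracting the mean leaves the gap inside *Famin* p.284R between replicates 3, 4 and 5 and its other libraries. The genes were chosen on those libraries, so a high r was built in and these passes lend no support to covariation. Without the *Famin* p.284R libraries, 3 of these 9 pairs passed, those among *Sod2*, *Ubd* and *Tma16*. With a library left out, r ranged from 0.47 to 0.74 for *Acsl1* and *Heatr9*, 0.81 to 0.91 for *Acsl1* and *Sod2*, 0.73 to 0.83 for *Acsl1* and *Tma16*, 0.76 to 0.85 for *Acsl1* and *Ubd*, and 0.77 to 0.85 for *Ubd* and *Heatr9*, where calls changed. With DESeq2 size factors, *Acsl1* and *Tma16* gave 0.77 at an adjusted p of 0.05, and with the replicate block *Acsl1* and *Heatr9* gave 0.81 and passed. Over the 10 libraries of *Famin* p.254I and p.254V, r fell to 0.35 for *Acsl1* and *Sod2*, 0.49 for *Acsl1* and *Ubd*, -0.18 for *Acsl1* and *Heatr9*, 0.20 for *Acsl1* and *Tma16*, 0.69 for *Sod2* and *Heatr9*, 0.53 for *Ubd* and *Heatr9* and 0.67 for *Heatr9* and *Tma16*. With the replicate block as well, 0 of 10 pairs passed (exact permutation adjusted p 0.25 to 0.95). These values were then 0.76, 0.68, -0.27, 0.77, 0.04, 0.07 and -0.32, and the remaining pairs gave 0.96 for *Sod2* and *Ubd*, 0.57 for *Sod2* and *Tma16* and 0.69 for *Ubd* and *Tma16*.

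*Ubd* and *Heatr9* had at most 4 reads per library in M0 and M2, so genotype differences there were not detectable at this depth.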
